A study of Rattus norvegicus with 2 samples.

Results

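Ribosomal protein genes were taken as all loci whose gene name begins with Rpl or Rps, with an optional p, followed by a digit, without the Rps6k kinases. The rule found 125 of 22777 gene loci in the table of mRNA levels. It uses names only and no measured value. The members comprised 96 loci that carry the name of a canonical cytoplasmic ribosomal protein, 20 loci named as like genes, pseudogenes or other derivatives, and 9 loci of 8 paralogs that have a name of their own. The canonical loci covered 73 of the 76 canonical names that follow this pattern. No locus bore the names Rpl21, Rpl28 or Rps12, which are not analysed here.

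The study measured RNA from the hypothalamus of female Sprague Dawley rats before puberty and at puberty. The deposited tables hold 1 prepubertal and 1 pubertal library. By the study's methods the rats were 25 days old before puberty and 35 days old at puberty, with vaginal opening as its sign, and 3 rats were used at each stage. The pubertal rats were in their first estrus. The sources used here do not say how the RNA or reads of the rats were combined. The labels name no transgene or treatment for either group. Levels are FPKM, fragments scaled to transcript length and to the mapped fragments of the library, and a gene's level is the sum over its transcripts. Differences are given as the log2 ratio of FPKM + 1 in the pubertal over the prepubertal library, which understates the difference for loci near 0. With 1 library per stage there was no replicate check and no test, so every difference below is between these 2 libraries, and age, stage and library cannot be told apart. In bulk tissue, fewer cells of a type and less RNA per cell cannot be told apart either.

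A ribosome consists of a small and a large subunit, each built from ribosomal RNA and a single copy of most of its proteins. The small subunit reads the mRNA, and the large subunit joins amino acids and lets the new chain out through its tunnel. Most mRNAs of ribosomal proteins start with a C and a run of pyrimidines, the 5' terminal oligopyrimidine (TOP) sequence, through which mTOR signalling controls their translation. Ribosomal protein genes also have many near-identical processed copies in mammalian genomes. Reads shared between such copies can be split or placed on either locus, and the level of each locus below is uncertain to that extent.

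The low FPKM values lay at whole multiples of what 1 fragment is worth, which gave a depth of about 20770000 fragments for the prepubertal and 16210000 for the pubertal library. By the same measure the 73 leading loci, the locus with the highest mean FPKM for each canonical name, had a median of 5294 and 5298 fragments. The counting error of their log2 ratios had a median of 0.0282 and reached 0.231 for Rps4x and 0.0832 among the other 72. These standard errors cover counting only and hold no variation between rats. All 11 hypothalamic peptide genes in the list were above 0, as markers of the labelled tissue. Pmch, the precursor of melanin-concentrating hormone, was at 1675 FPKM before puberty and 2723 at puberty.

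Of the 96 canonical loci, 81 were above 0 in at least 1 library and 15 were listed at 0 in both. The canonical loci were higher at puberty as a group. Their median log2 ratio was 0.38, or 1.30-fold, against -0.01 over the 18052 genes above 0 in at least 1 library. At puberty 78 of the 81 were higher and 3 were lower, while 49.0% of all genes were higher. The threshold for counting a difference was 25% in FPKM + 1, a log2 ratio of 0.32 or more for higher and of -0.32 or less for lower. Past it were 54 of the 81 on the higher side, against 7.56% of all genes. On the lower side were 3, against 10.1% of all genes, namely Rps16, Rpl17 and a weakly expressed further locus of Rps29. None was at least 2-fold higher and 1, Rps16, was at least 2-fold lower, against 0.388% and 0.471% of all genes.

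The same was seen among genes of a like level. Of the 77 canonical loci with a mean of at least 100 FPKM, 75 were higher, against 65.6% of the 1177 genes of that level, members included. Past the threshold were 51 on the higher side, against 10.7%, and 2 on the lower side, against 5.01%. At least 2-fold lower was 1, against 0.595%, and none was at least 2-fold higher, against 0.255%.

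The differences were narrow in size. The middle 50% of the canonical loci lay between 0.28 and 0.45 on the log2 scale, and the whole range ran from -1.06 to 0.76. Of the 73 leading loci, 64 or 87.7% lay between 0.2 and 0.6. In the same band lay 217, or 19.8%, of the 1098 genes outside the members with a mean of at least 100 FPKM, whose median was 0.06. The 71 leading loci that were higher had an SD of 0.12 among themselves, from 0.04 for Rpl38 to 0.60 for Rps6, which is wider than the counting error of most of them. The levels of the 2 libraries ran closely together, with a Pearson r of 0.987 across the 73 loci between the libraries on the log2 FPKM scale. That correlation is across genes, which are no replicates, and transcript length enters both axes.

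**Figure D1:**
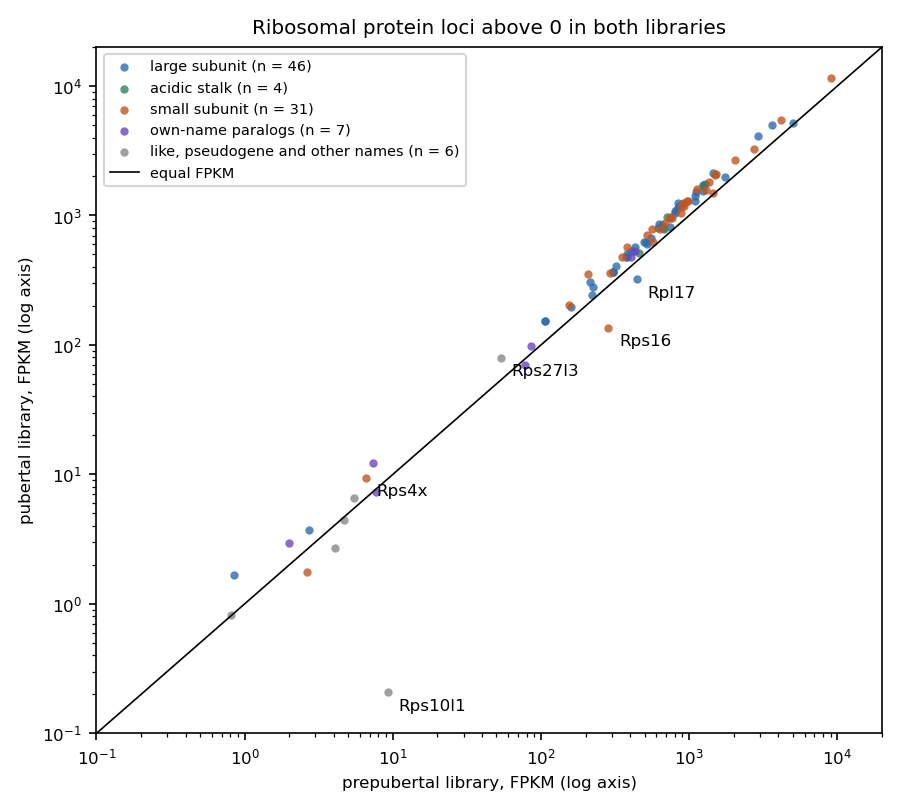
Level of each ribosomal protein locus above 0 in both libraries, with prepubertal FPKM on the x axis and pubertal FPKM on the y axis, both on log axes, coloured by class. The line marks equal FPKM. Most canonical loci lie just above the line at levels over 100 FPKM, Rps16 and Rpl17 lie below it, and Rps10l1 lies far below it at 9.32 and 0.209 FPKM.

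The canonical loci together took 10.2% of the FPKM of the mRNA table before puberty and 12.5% at puberty, with sums of 79136.7 of 772759 and 100996 of 805045 FPKM. Counted as fragments, which do not weight short transcripts up, they took 1.96% (95% Wilson interval 1.96 to 1.97) before puberty and 2.59% (2.58 to 2.60) at puberty. The intervals cover counting error only. Both measures were higher in the pubertal library. The canonical transcripts had a median length of 561 nt against 1902 nt over all genes.

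The 6 loci below stood highest on the FPKM scale, and all code for small proteins with transcripts of 305 to 366 nt. Rps29, a zinc-binding protein of the small subunit head, was at 9036 FPKM before puberty and 11467 at puberty, a log2 ratio of 0.34. Rps27, another zinc-binding small subunit protein, was at 4178 and 5491 FPKM, and Rps21 was at 2752 and 3236 FPKM. Among the large subunit proteins, Rpl37 was at 3634 and 5025 FPKM, a log2 ratio of 0.47. Rpl41, the smallest ribosomal protein, was at 2927 and 4121 FPKM, a log2 ratio of 0.49. Rpl38 was at 5054 and 5208 FPKM, a log2 ratio of 0.04 with a counting error of 0.0295. This ratio depended on the processing: it was -0.01 when centred within length classes and 0.21 with 1 effective length for both libraries. FPKM divides by the length left after the fragment length, which is short for these transcripts, so their rank on this scale, and for the shortest the ratio too, depends on the fragment length. With 1 effective length for both libraries the log2 ratio of Rps29 was 0.50. Rps29 held an estimated 9948 and 10966 fragments, and the longer Rps6 held 4108 and 4916.

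Both subunits were higher at puberty, with medians close to each other. Over 31 small subunit loci the median log2 ratio was 0.39, with 29 higher, against 49.0% of all genes, and 21 past the threshold on that side, against 7.56%. Over 46 large subunit loci it was 0.36, with 45 higher and 31 past the threshold on that side, to be read against the same shares. Each subunit's median lay between the quartiles of the other, which were 0.29 to 0.45 for the small and 0.27 to 0.46 for the large subunit. Whether the medians differ between the subunits was not tested.

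Among the leading loci of the small subunit that were higher at puberty, the largest difference was that of Rps6, the main substrate of the S6 kinases downstream of mTOR, at 378 FPKM before puberty and 573 at puberty, a log2 ratio of 0.60 with a counting error of 0.0305. Rps27a, made as a fusion of ubiquitin and a small subunit protein, was at 1513 and 2075 FPKM, a log2 ratio of 0.46. Between them among the leading loci stood Rps3a, with 564 and 791 FPKM and a log2 ratio of 0.49. All 3 differences were many times their counting errors of 0.0207 to 0.0305. Rps3, at the channel where mRNA enters, was at 744 and 978 FPKM, and Rps19, the gene first linked to Diamond-Blackfan anaemia, was at 521 and 711 FPKM. Rps14, a gene of the 5q- syndrome, was at 2028 and 2666 FPKM. Rps3, Rps14 and Rps19 were added for their known roles, and Rps3a for its rank, after the values were seen. The log2 ratios of Rps3, Rps19 and Rps14, 0.39, 0.45 and 0.39, lay within the quartiles of the small subunit. At the lower end stood Rps2, which lies near the mRNA entry channel, at 572 and 624 FPKM with a log2 ratio of 0.12, or 0.053 when centred within length classes. Rps26, which lines the exit path of the mRNA, was at 1438 and 1499 FPKM, a log2 ratio of 0.06. This was 0.0095 when centred within length classes and 0.11 with 1 effective length for both libraries.

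Among the leading loci of the large subunit the largest log2 ratios were those of Rpl19, Rpl26 and Rpl12. Rpl19, which forms bridges to the small subunit, was at 845 FPKM before puberty and 1252 at puberty, a log2 ratio of 0.57. Rpl26, near the exit of the peptide tunnel, was at 1449 and 2131 FPKM, a log2 ratio of 0.56. Rpl12, at the base of the stalk, was at 214 and 307 FPKM, a log2 ratio of 0.52. The counting error was 0.0222, 0.0214 and 0.0482 in that order, so the order of the 3 cannot be read from these counts. Rpl5 and Rpl11, which carry the 5S ribosomal RNA and bind Mdm2, were added for that role after the values were seen. Rpl5 was at 379 and 481 FPKM and Rpl11 at 737 and 948 FPKM, with log2 ratios of 0.34 and 0.36 near the middle of the large subunit. At its lower end, above Rpl38, stood Rpl34 at 739 and 808 FPKM and Rpl29 at 219 and 241 FPKM, with log2 ratios of 0.13 and 0.14, both picked after their values were seen.

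The stalk of the large subunit recruits elongation factors. Its proteins were higher at puberty at all 4 loci, with a median log2 ratio of 0.33. Higher were 49.0% of all genes and 65.6% of those with a mean of at least 100 FPKM, and 4 loci are few beside these shares. Past the threshold on the higher side were 2 of the 4, against 7.56% of all genes. Rplp0, the base of the stalk, was at 457 and 516 FPKM, a log2 ratio of 0.17. Rplp1 had 2 loci, at 1245 and 1679 FPKM and at 704 and 980 FPKM, with log2 ratios of 0.43 and 0.48. Rplp2, which pairs with Rplp1, was at 673 and 785 FPKM, a log2 ratio of 0.22. Rplp0 and Rplp2 thus lay below the lower quartile of the large subunit, 0.27, and both loci of Rplp1 above its median.

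**Figure D2:**
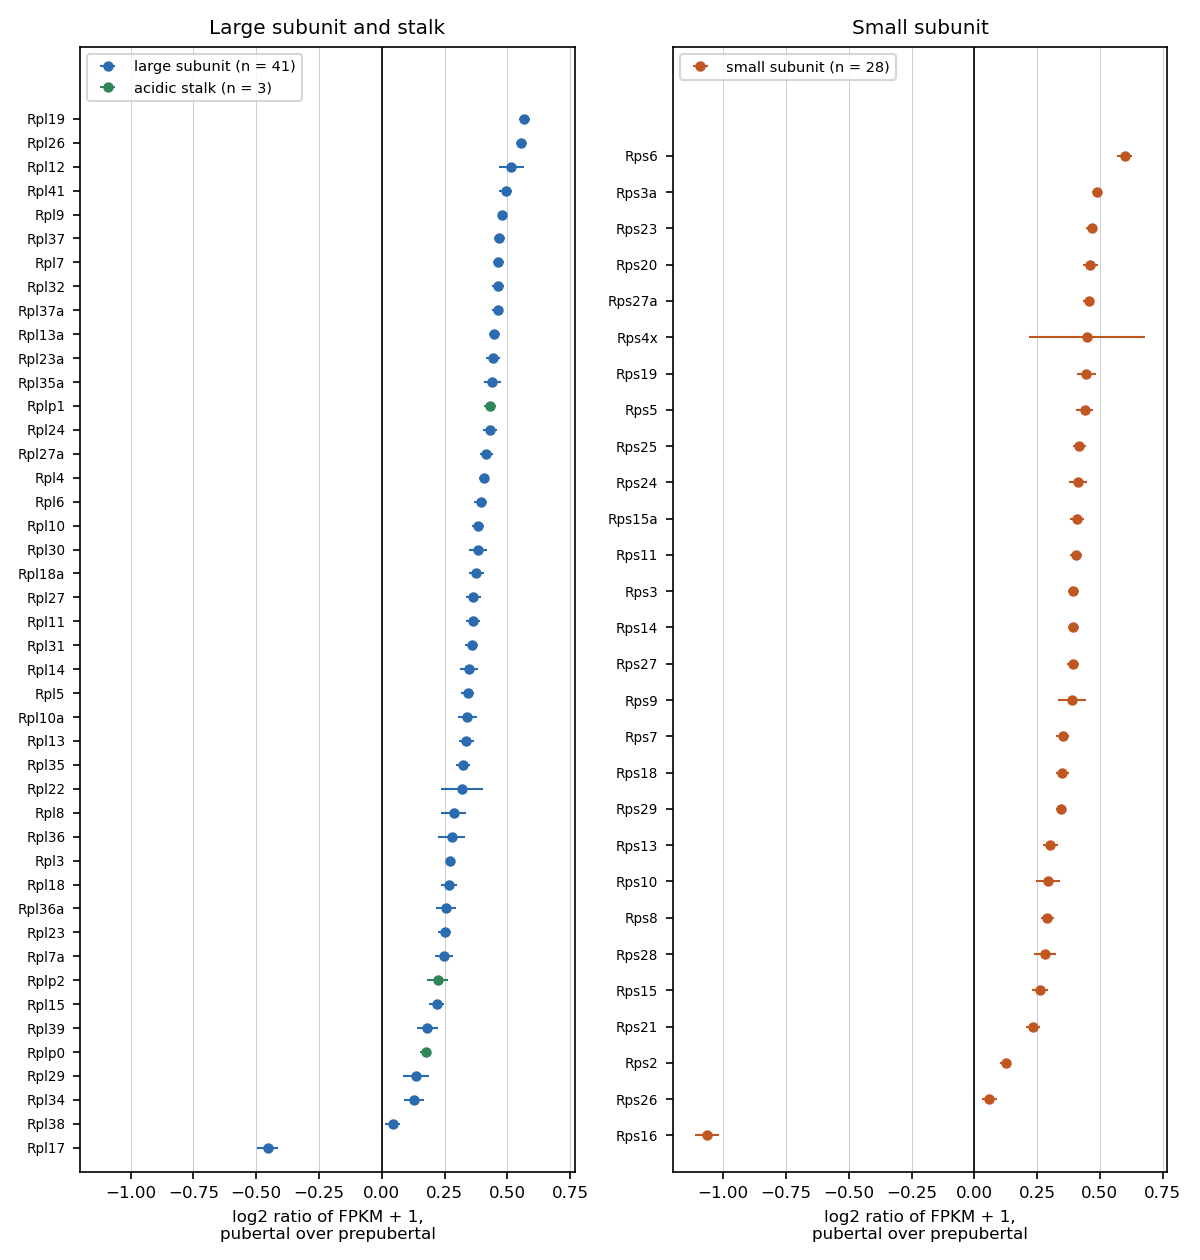
Log2 ratio of FPKM + 1, pubertal over prepubertal, for the leading loci of the canonical names (1 small subunit locus is not shown), ordered by value, with the large subunit and stalk on the left and the small subunit on the right; bars are 1 standard error from fragment counting only. All but Rpl17 and Rps16 lie above 0, from 0.04 for Rpl38 (-0.01 when centred within length classes, 0.21 with 1 effective length for both libraries) to 0.60 for Rps6, and Rps4x has the widest bar at 0.231.

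The leading loci of 2 names were lower at puberty. Rps16, a protein of the small subunit head, was at 285 FPKM before puberty and 136 at puberty, a log2 ratio of -1.06 with a counting error of 0.0478, from an estimated 3330 and 1251 fragments. Rpl17, near the tunnel exit, was at 444 and 324 FPKM, a log2 ratio of -0.45 with a counting error of 0.0417, from 3273 and 1893 fragments. Both lay below the other 71 leading loci, which ran from 0.04 to 0.60. Those 71 are by definition the leading loci that were higher. Each of these names had 1 locus, and whether reads of these genes lie on copies with other names was not tested. Both stayed lower with the pubertal library scaled to equal Actb, at -0.66 and -0.05, so that Rpl17 was then close to 0.

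A name could stand for more than 1 locus, as 11 of the 73 did. Of the 23 further loci, 8 were above 0, with a median log2 ratio of 0.50. A second locus of Rps29 was at 209 and 355 FPKM, a log2 ratio of 0.76 with a counting error of 0.122, the largest ratio among the canonical loci. Another was at 2.66 and 1.77 FPKM, from about 3.86 and 2.18 fragments, too few to give it a direction. The further loci of Rpl19, at 0.842 and 1.67 FPKM, and of Rpl32, at 2.71 and 3.74 FPKM, held 7 to 11 fragments each, likewise too few. Of the 4 further loci of Rpl35a, 2 were listed at 0 and 2 held the same values, 107 and 154 FPKM, and both loci of Rpl7a held 306 and 364 FPKM. These 4 were the only canonical loci above 0 whose values were equal to those of another, and whether each pair shares its reads was not tested.

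The locus named Rps4x, after the X-linked small subunit protein, was an outlier in level rather than in ratio. The locus of that name was at 6.64 FPKM before puberty and 9.43 at puberty, while the leading loci of the other 72 names were all above 100 FPKM on average. Another locus, named LOC100362640 in the files, carries the NCBI gene number that RefSeq now lists as Rps4x, and it was at 661 and 823 FPKM, a log2 ratio of 0.32. That locus lies outside the name rule and is not counted above.

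The 20 loci of like, pseudogene and other names behaved differently from the canonical loci in level. In all, 9 were listed at 0 in both libraries, 11 were above 0 in at least 1, and 6 of these reached a mean of 1 FPKM. Together they took 0.0103% of the FPKM before puberty and 0.0123% at puberty. Their median log2 ratio was -0.06, with 5 of 11 higher, near the 49.0% of all genes. Past the threshold were 3 on the higher and 5 on the lower side, against 7.56% and 10.1%, and at least 2-fold apart was 1 each way, against 0.388% higher and 0.471% lower. The 1 counted as 2-fold higher, Rpl37-ps1, held fewer than 3 fragments, and many of the others rest on a few. The median is the value of Rps19bp1, which codes for a protein that binds Rps19 and is no ribosomal protein, and it was -0.17 without that locus. It turned to 0.21 with the pubertal library scaled to equal Actb and to 0.087 over the 6 loci with a mean of at least 1 FPKM. Rps19bp1 was at 4.66 and 4.44 FPKM.

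Rps27l3 was the highest of them, at 53.6 FPKM before puberty and 80.0 at puberty, a log2 ratio of 0.57 with a counting error of 0.110. Rps2-ps6 was at 5.44 and 6.56 FPKM and Rpl12-ps1 at 4.09 and 2.69 FPKM. Their log2 ratios were 0.23 and -0.46 beside counting errors of 0.276 and 0.388, too wide to give either a direction. The sharpest contrast of all members was that of Rps10l1, at 9.32 and 0.209 FPKM. It held about 56 fragments before puberty and 1 at puberty, a ratio of 0.0225 with an exact 95% counting interval of 0.000558 to 0.130. Rpl37-ps1 was listed at 0 before puberty and at 3.74 FPKM at puberty, which for its length of 294 nt came to 2.61 fragments, under the 3 fragments that a count of 0 allows, so no difference was detectable at this depth.

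The paralogs with their own names were mostly low or moderate in level. Rpl22l1, the paralog of Rpl22, was at 430 FPKM before puberty and 530 at puberty, a log2 ratio of 0.30, and exceeded Rpl22 itself at 226 and 282 FPKM. Rpl36al was at 403 and 476 FPKM, a log2 ratio of 0.24, with a second locus listed at 0. Rps27l, a p53 target, was at 85.2 and 97.3 FPKM. Rpl7l1 was at 78.1 and 69.4 FPKM, with a log2 ratio of -0.17 that turned to 0.23 with the pubertal library scaled to equal Actb. Both retrogene-derived paralogs known from testis were low in this tissue. Rpl39 itself was at 1745 and 1978 FPKM, while Rpl39l was at 7.35 and 12.2 FPKM, a log2 ratio of 0.66 with a counting error of 0.314, and Rpl10l was at 1.98 and 2.98 FPKM. Rpl3l, known from striated muscle, was at 0 and 0.0569 FPKM, the latter from 1 fragment. Rps4y2 was at 7.76 and 7.33 FPKM, within counting error. Over the 8 loci above 0 the median log2 ratio was 0.22.

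Ribosomal proteins whose names do not follow the Rpl and Rps pattern were higher at 4 of 4 loci, by less than the median of the canonical loci. Higher were 49.0% of all genes and 65.6% of those with a mean of at least 100 FPKM, so 4 loci say little by their direction. Gnb2l1, also called Rack1, a scaffold on the small subunit, was at 288 FPKM before puberty and 345 at puberty, a log2 ratio of 0.26. Rpsa, of the small subunit, was at 499 and 595 FPKM, a log2 ratio of 0.25. Fau, made as a fusion of a ubiquitin-like protein and a small subunit protein, was at 898 and 1045 FPKM, a log2 ratio of 0.22. None of the 4 reached the threshold, against 7.56% of all genes on the higher side.

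The TOP start sequence was looked for in RefSeq promoters, because it is the feature most ribosomal protein mRNAs share and the name rule did not use it. A run was counted where a C followed by at least 4 bases that are each C or T began within 10 bases of the annotated start on the transcript strand. It was found at 47 of 61 starts, or 77.0%, of the canonical names, against 9660 of 33469, or 28.9%, of all starts in the table. Starts of RefSeq genes with like and pseudogene names of ribosomal proteins had it in 67 of 186 cases, or 36.0%. Mitochondrial ribosomal proteins had it in 23 of 65, or 35.4%, and respiratory chain genes in 33 of 107, or 30.8%. The search uses annotated starts, which need not be the starts used in this tissue, and a match is a description of the letters only.

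The 30 bases around the start are shown for genes with large differences in either direction and for Rpl38 with a ratio near 0, to set the start beside the ratio. They are from RefSeq on build GRCr8, a build newer than those named for the files, 5' to 3' on the transcript strand with the annotated start at the sixteenth base. Capitals mark the run where one was found, drawn out to the first C of its unbroken stretch of C and T, which in Rps6 lies 1 base beyond the window searched.
Rps6, chr5:106420526-106420555, minus strand: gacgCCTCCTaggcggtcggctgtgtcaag
Rpl19, chr10:83519049-83519078, plus strand: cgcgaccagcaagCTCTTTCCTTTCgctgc
Rpl26, chr10:54109677-54109706, plus strand: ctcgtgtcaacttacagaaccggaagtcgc
Rpl12, chr3:36661925-36661954, plus strand: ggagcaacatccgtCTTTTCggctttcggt
Rps16, chr1:92770643-92770672, plus strand: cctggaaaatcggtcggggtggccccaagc
Rpl17, chr18:70856261-70856290, plus strand: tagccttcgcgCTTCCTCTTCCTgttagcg
Rpl38, chr10:100200420-100200449, plus strand: cttcgttCTTTTTCCgttgttcggtgctcg

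In Rpl19, Rpl17 and Rpl12 the run spans the annotated start, and in Rps6 and Rpl38 it lies upstream of it. Rpl26 with a high ratio and Rps16 with the lowest had no run in this window, while Rpl17, which was lower too, had one. Over the leading loci with a start in RefSeq, the 45 with a run had a median log2 ratio of 0.35 and the 13 without had 0.36. The values overlapped widely, from -0.45 to 0.60 with a run and from -1.06 to 0.56 without.

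Other parts of the translation machinery differed less between the libraries than the ribosomal proteins. Over all genes 7.56% were past the threshold on the higher and 10.1% on the lower side. The 13 loci of elongation factors and their partners had a median log2 ratio of 0.09, with 1 past the threshold on the higher and 1 on the lower side. Eef1a1, the factor that brings aminoacyl-tRNA to the ribosome and itself a TOP mRNA, was at 1991 FPKM before puberty and 2563 at puberty, a log2 ratio of 0.36 between the quartiles of the canonical loci. Eef1g, a subunit of the complex that recharges this factor, lay there too, at 365 and 456 FPKM with a log2 ratio of 0.32. Eef2 and Tpt1 lay below those quartiles, at 546 and 570 FPKM and at 467 and 533 FPKM, with log2 ratios of 0.06 and 0.19. Eef1g, Eef2 and Tpt1 were named after their values were seen. Pabpc1, the cytoplasmic poly(A)-binding protein and also a TOP mRNA, was at 23.6 and 17.1 FPKM, a log2 ratio of -0.44. Initiation factors had a median of 0.01 over 37 loci, with 2 past the threshold on the higher and 4 on the lower side. Among them Eif4a2, an RNA helicase, was at 810 and 940 FPKM, and Eif3a, the largest subunit of the Eif3 complex, was at 55.0 and 39.3 FPKM.

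The genes that build ribosomes had a small median difference, and more of them were past the threshold on the lower than on the higher side. Over 36 biogenesis loci the median log2 ratio was 0.05. Past the threshold were 1 on the higher side, against 7.56% of all genes, and 7 on the lower side, against 10.1%. Npm1, a nucleolar chaperone, was at 324 and 372 FPKM, Nip7 was at 22.5 and 31.4 FPKM, and Gar1, of the box H/ACA particles that modify ribosomal RNA, was at 4.66 and 1.79 FPKM. The 16 genes of mTOR signalling and TOP mRNA control had a median of -0.15, with 3 higher and 13 lower, while 49.0% of all genes were higher. With equal medians 6 were higher and 10 lower. The median turned to 0.21, with 15 higher and 1 lower, with the pubertal library scaled to equal Actb, which lifted the median of all genes to 0.30. Rheb, the GTPase that activates mTOR, was at 160 and 155 FPKM.

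Mitochondrial ribosomal proteins, which serve the organelle's own ribosome, had a median log2 ratio of 0.15 over 75 loci. Of these 62 were higher, against 49.0% of all genes, while 6 of the 75 (8%) were past the threshold on that side, near the 7.56% of all genes, and 3 were past it on the lower side, against 10.1%. Respiratory chain genes, which like ribosomal proteins have short and abundant mRNAs, had a median of 0.10 over 89 loci, with 4 past the threshold on the higher and 5 on the lower side, to be read against the same shares. They took 5.39% of the FPKM before puberty and 5.54% at puberty. The 32 proteasome loci had a median of 0.16, with 2 past the threshold on the higher and 1 on the lower side, against 7.56% and 10.1%. The canonical ribosomal proteins thus had the highest median of these lists of complexes, and no list median was tested against another.

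**Figure D3:**
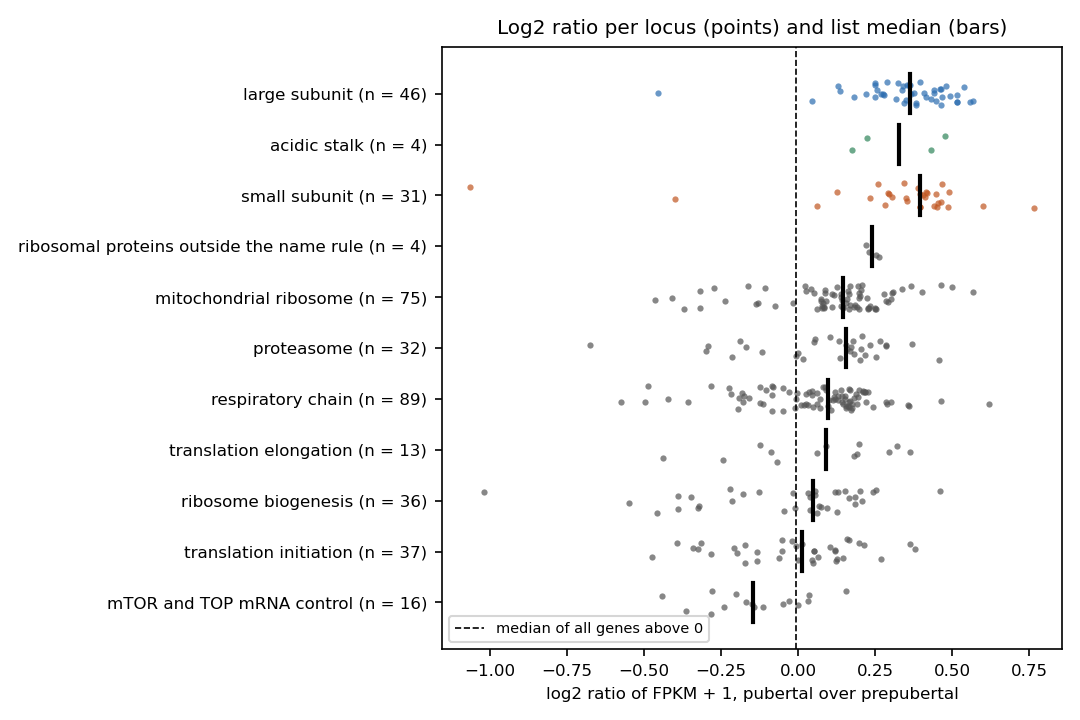
Log2 ratio of FPKM + 1, pubertal over prepubertal, for each locus above 0 (points, spread vertically for display) with the list median (bars) and the median of all genes above 0 (dashed line). The large subunit, stalk and small subunit medians of 0.36, 0.33 and 0.39 lie right of every other list drawn here, whose medians run from -0.15 for mTOR and TOP mRNA control (0.21 with the pubertal library scaled to equal Actb) to 0.24 for ribosomal proteins with other names.

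The canonical transcripts were short beside those of all genes, with medians of 561 and 1902 nt. The comparison was therefore repeated within length classes for loci with a mean of at least 100 FPKM. In each of 6 classes the canonical median was above that of the other genes. From 300 to under 400 nt it was 0.34 over 13 loci against 0.17 over 32 other genes. From 500 to under 600 nt it was 0.43 over 16 loci against 0.17 over 61. From 1000 to under 1500 nt it was 0.38 over 6 loci against 0.10 over 217. The other genes of these classes were thus also above the median of all genes, by less than the canonical loci were. Within the 73 leading loci the log2 ratio had a Spearman correlation of 0.07 with length and of 0.26 with mean FPKM, given as descriptions, since length enters FPKM itself.

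**Figure D4:**
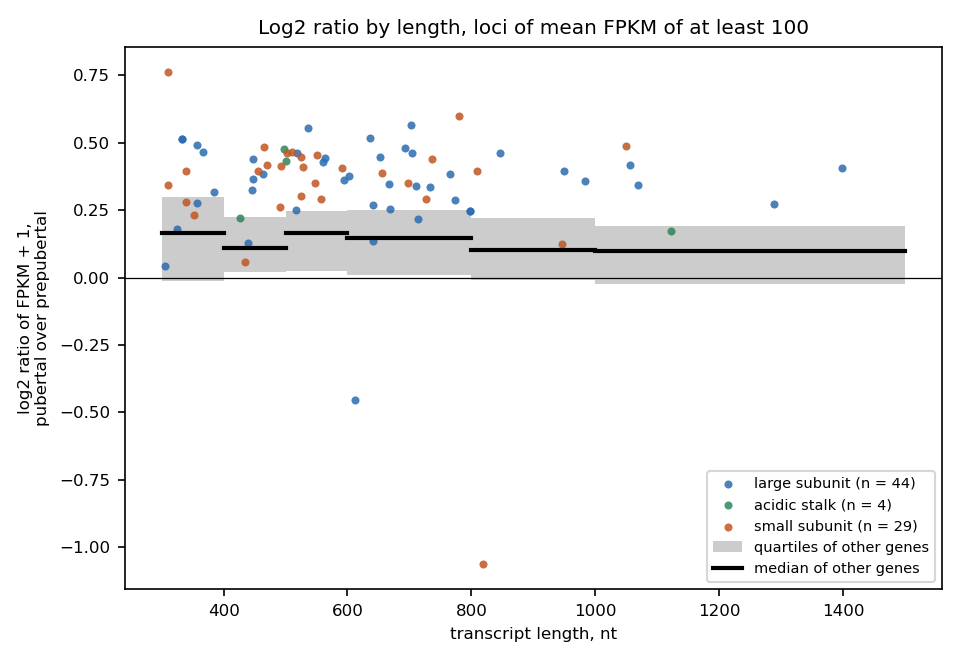
Log2 ratio of FPKM + 1, pubertal over prepubertal, against transcript length in nt for canonical loci with a mean of at least 100 FPKM (points, coloured by class); bars and grey bands give the median and quartiles of the other genes of that level in 6 length classes. The canonical median lies above the other genes' median in each class, for example 0.43 against 0.17 from 500 to under 600 nt.

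Markers of the tissue and of other cells differed between the libraries beside the ribosomal protein genes. Over all genes 49.0% were higher and 7.56% past the threshold on that side. All 5 red blood cell genes measured were past it on that side, with a median log2 ratio of 0.63 and a summed level of 6837 FPKM before puberty and 13083 at puberty. Hbb, a beta-globin, was at 2130 and 5898 FPKM. Of 7 pituitary genes 6 were higher, with a summed level of 77.4 and 113 FPKM, and Prl was listed at 0 before puberty and at 3.40 FPKM at puberty. Of the 11 hypothalamic peptide genes 10 were higher and 5 were past the threshold on that side, with a median log2 ratio of 0.29 and a summed level of 2793 and 4209 FPKM. Oxt, the oxytocin precursor, was at 411 and 686 FPKM, a log2 ratio of 0.74. All 8 microglia genes were higher, with sums of 255 and 302 FPKM. Of 8 neuron genes 7 were lower, with a median of -0.18 that turned to 0.23 with the pubertal library scaled to equal Actb, and their sum was 2939 and 2639 FPKM. The part of these cells, of the tissue taken, of depth and of RNA quality in the levels of the ribosomal protein genes was not tested.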

How the data were processed

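The authors made rRNA-depleted, strand-specific, paired-end libraries from hypothalamic total RNA and deposited FPKM values per transcript for 1 prepubertal and 1 pubertal library, computed with Cuffdiff 2.1.1 on Rnor_5.0 per the submitters' processing notes, while the study's methods name an Rnor_6.0 annotation. Which build the tables use was not settled here, and no coordinates of the tables are printed. Their fold change, p-value and q-value columns in the comparison table were not used. FPKM of 26324 mRNA transcripts were summed per gene identifier. Gene names and lengths came from the comparison table, whose FPKM differed for 13 transcripts, none of them a member.

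Depth was read from low FPKM values. With an effective length of the transcript length minus 257 nt (prepubertal) or 251 nt (pubertal), 95.9% of 636 and 95.2% of 753 values up to 6 fragments were whole within 0.05. Counting errors come from these estimated fragments. They are standard errors of the log2 ratio without the pseudocount, which for loci near 0 is larger in size than the ratio printed. The scripts were tested on simulated data. A pseudocount of 1 was used, and genes at 0 in both libraries were left out of medians and counts.

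With 1 library per stage no test was made. Named canonical loci were the 6 with the highest and lowest mean FPKM, the 6 largest and 6 smallest log2 ratios, the stalk genes, Rps6 and Rps27a. Named copies were the 5 with the highest mean and, from a mean of 1 FPKM, the 3 largest differences each way. All own-name paralogs and most ribosomal proteins outside the name rule were named, and in other lists the highest gene and the largest differences, of which a selection is shown. A few single-gene values are not reported here, though their loci count in the medians. The members and lists were chosen with earlier results of these data known. Python 3.11.15, pandas 2.3.3, numpy 2.4.6, scipy 1.17.1 and matplotlib 3.10.9 were used. RefSeq starts were on GRCr8.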

Additional observations from a re-analysis of the deposited data

How the results depend on the processing

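No paired analysis was possible because each stage has 1 library. The median of the canonical loci stayed above 0 under every alternative run. Scaling the pubertal library to equal medians (1.04-fold) gave median log2 ratios of 0.44 for canonical loci, 0.45 for the small subunit, 0.20 for the mitochondrial ribosome, 0.15 for the respiratory chain, 0.30 for ribosomal proteins with other names and 0.21 for the proteasome. Scaling to equal Actb (1.32-fold) moved the median of all genes to 0.30. It gave 0.79 for canonical loci, 0.80 for the small subunit, 0.77 for the large subunit and stalk, 0.21 for copies (reversed), 0.54 for the mitochondrial ribosome, 0.50 for the respiratory chain, 0.65 for ribosomal proteins with other names, 0.47 for elongation, 0.41 for initiation, 0.43 for biogenesis, 0.21 for mTOR genes (reversed) and 0.56 for the proteasome. By construction this scaling raises every pubertal value. Past the threshold on the lower side was then 1 canonical locus, while 2 were at least 2-fold higher and 0 at least 2-fold lower. Centring within 10 length classes gave 0.32 for canonical loci and 0.31 for the large subunit and stalk. It gave 0.10 for the mitochondrial ribosome and 0.18 for ribosomal proteins with other names, and put Rpl38 at -0.01. Of the 81 canonical loci 77 were then higher and 4 lower. Past the threshold on the higher side were 41, against 54 without centring. A mean of at least 1 FPKM left 6 copies, at 0.087 (reversed). Chosen after seeing the data, 1 effective length for both libraries gave 0.26 for ribosomal proteins with other names. Using the top transcript of each gene gave canonical shares of 10.5% and 12.8% and a prepubertal copy share of 0.0105%. Also chosen after seeing the data, 1 locus per name gave 10.1% and 12.3%, and fragments gave 1.96% and 2.59%, with 0.00253% and 0.00308% for copies. A pseudocount of 0.1 and the FPKM of the comparison table moved none of the 16 and 20 values beyond their spread, and neither did leaving out Rps19bp1 for the copies (-0.17). What depth limits is loci of a few fragments, as for most copies, and 1 library per stage limits all else.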

Other observations

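Ribosomal protein loci were also found under names that the name rule does not take. Of 1940 loci named LOC followed by a number, 752 had a number that RefSeq lists as a rat gene, and RefSeq gives 53 of these the symbol of a ribosomal protein, like gene or pseudogene. Above 0 were 31 of the 53, and 9 reached a mean of 10 FPKM. Of these 9, 8 were higher at puberty, against 49.0% of all genes and 65.6% of genes with a mean of at least 100 FPKM. Loci below 10 FPKM went both ways. LOC100361240, listed as Rps10l6, was at 4.48 and 0 FPKM, and LOC684988, listed as Rps13-ps10, was at 3.79 and 4.82 FPKM. The 9 include LOC100362640, listed as Rps4x, whose values are given above. LOC100360117, listed as Rpl8-ps7, was at 166 FPKM before puberty and 200 at puberty, and the locus named Rpl8 was at 160 and 196 FPKM. LOC100360449, listed as Rpl9-ps31, was at 45.4 and 59.6 FPKM, and the locus named Rpl9 at 1240 and 1730 FPKM. These loci were picked after their values were seen. How many of their fragments come from the parent genes was not tested.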
